A study of Mus musculus with 2 samples.

Results

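Lubricin fibroblasts made up 388 of 5660 fibroblasts in a library of aged mice (6.86%, 95% interval 6.21 to 7.54) and 426 of 5601 fibroblasts in a library of adult mice (7.61%, 95% interval 6.92 to 8.33). They were 5.55% of 6992 cells of all kinds in the aged library and 5.83% of 7308 in the adult library. A fibroblast was a cell with at least 1 UMI of Pdgfra and of Dcn, where a UMI is a molecular tag that counts 1 captured RNA. A lubricin fibroblast also had a Prg4 value of 1 or more, on a scale of the natural log of 1 plus UMIs per 10000, and at least 2 detected genes of the 5 program genes Myoc, Ccn5, Thbs2, Sfrp4 and Lgals3. These 8 genes chose the cells, so their levels in them are given as a description.

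The study set aged mice, 93 weeks old, beside adult mice, 12 weeks old, using the lymphatics that carry lymph into the submandibular nodes. Each library came from the tissue of 6 mice, and both groups were FVB/N mice carrying Prox1-GFP, a fluorescent reporter of the lymphatic endothelial transcription factor Prox1. Cells were sorted and made into droplet libraries of RNA 3' ends, with no gate stated for the sort. With 1 library per age and no mark of the animal on a cell, no difference was tested, and the intervals below cover counting error only.

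Prg4 encodes lubricin, a heavily glycosylated secreted protein that coats cartilage and synovium and lets sliding surfaces move past each other with little friction. Myoc encodes myocilin, a secreted glycoprotein best known from the trabecular meshwork of the eye, the tissue through which aqueous humour drains. The other program genes encode secreted modulators of the matrix and of Wnt signals: Ccn5 and Thbs2 are matricellular proteins, Sfrp4 is a secreted Wnt antagonist, and Lgals3 is the lectin galectin-3.

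Before any comparison, 6977 barcodes, 95.5% of those in the adult table, were found in the aged table too. These cells were counted once, as adult, which left 6992 of 13969 cells in the aged library. The aged copy of a shared cell held about 0.506 times the UMIs of the adult copy (median). Of 422 adult lubricin fibroblasts with a copy in the aged table, 263 copies (62.3%) also met the rule, and 51 copies met it where the adult cell did not. With all cells of the aged table kept, 702 cells met the rule and the aged share was 6.79%.

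Prg4 spread widely among the chosen cells. In aged lubricin fibroblasts the Prg4 value had a median of 1.77 and reached 4.89, and in adult ones the median was 2.30 and the highest value 4.95. In UMIs the median cell held 6 molecules in the aged library, with a range of 1 to 187, and 13.5 in the adult library, with a range of 1 to 279. Cells at a value of 3 or more numbered 39 (10.1%) in the aged library and 146 (34.3%) in the adult library. Cells with 3 or fewer Prg4 UMIs numbered 95 (24.5%) in the aged library and 46 (10.8%) in the adult library, so many members passed on a handful of molecules. The value closest to the threshold was 1.0005 inside and 0.998 outside it in the aged library, and 1.0002 inside and 0.998 outside it in the adult library. Summed over the chosen cells, Prg4 stood at 913 counts per 1000000 UMIs (CPM) in the aged library and 2025 CPM in the adult library.

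At 1 fixed depth of 5324 UMIs per cell, where a single Prg4 UMI passes the threshold, the share was 7.25% in both libraries (324 of 4470 aged and 317 of 4373 adult fibroblasts). The median depth of the lubricin fibroblasts was 13813 UMIs in the aged library and 14842 in the adult library. Outside these cells Prg4 was not absent. A Prg4 UMI was found in 11.9% of other aged fibroblasts (19.7 CPM, median depth 12480.5 UMIs) and 11.3% of other adult fibroblasts (34.3 CPM, 13328 UMIs). Among cells with Pecam1 and Cdh5 and no Pdgfra, taken as endothelial, it was found in 19.4% in the aged library (67.2 CPM, 6194 UMIs) and 22.3% in the adult library (71.6 CPM, 7376 UMIs). Among cells with Myh11 and Acta2 and no Pdgfra, taken as smooth muscle, the share was 0.995% in the aged library (3.42 CPM, 5580 UMIs) and 1.16% in the adult library (2.83 CPM, 6304 UMIs). Smooth muscle thus set the lowest Prg4 level of the cell kinds examined.

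The name of a lubricin fibroblast with a Myoc program held in part. All 8 fibroblast markers were present in both libraries, led by Dcn at 16026 CPM in aged and 16698 CPM in adult lubricin fibroblasts. Myoc itself was detected in a minority: 34.8% of the cells in the aged library and 39.4% in the adult library. The 10% of cells highest in Myoc held 71.8% of the Myoc UMIs of aged lubricin fibroblasts and 68.8% of those of adult ones. The program part of the rule was met by 78.2% of 496 aged and 80.8% of 527 adult fibroblasts with a Prg4 value of 1 or more, and also by 61.7% of 4645 aged and 67.3% of 4590 adult fibroblasts without Prg4. The detected program genes numbered all 5 in 69 aged and 59 adult lubricin fibroblasts (17.8% and 13.8%), and exactly 2 in 130 aged and 135 adult ones (33.5% and 31.7%).

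Leaving the program out of the gate showed how each program gene went with Prg4. Fibroblasts with a Prg4 value of 1 or more, whatever else they expressed, held Myoc at 500 CPM in the aged library, against 61.7 CPM in aged fibroblasts without Prg4 (log2 ratio 3.00, 95% interval 2.95 to 3.09). In the adult library Myoc stood at 440 CPM with Prg4 and 169 CPM without (log2 ratio 1.38, 1.33 to 1.44). Ccn5 was higher with Prg4 by a log2 ratio of 1.58 in the aged library and 0.29 in the adult library. Sfrp4 was higher by 1.09 in the aged and 0.65 in the adult library, Lgals3 by 0.83 and 0.53, and Thbs2 by 0.79 and 0.34. All 5 program genes therefore stood higher beside Prg4 in both libraries, and each by more in the aged one, a difference between libraries that was not tested.

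Fibroblasts of both libraries were then clustered together without the 8 genes of the rule, so the Prg4 and Myoc levels of a cluster had no part in its making. The lubricin fibroblasts did not form 1 cluster: they were found in 20 of 21 clusters in the aged library and in 17 in the adult library. Of the adult ones, 196 cells (46.0%) lay in a cluster led by Hmcn1, Dlx5, Npr3, Osr2, Dlx6os1 and Dlx6, beside 7 aged ones (1.80%). Dlx5, Dlx6 and Osr2 are homeobox and zinc-finger transcription factors known from skeletal and craniofacial patterning, and Hmcn1 encodes hemicentin-1, an extracellular matrix protein. In aged mice the largest group, 106 cells (27.3%), lay in a cluster led by Angptl1, S100a4, Cav1 and Tgfbi, which held 26 adult ones (6.10%). A cluster led by S100a4, Slco2a1 and Pcdh9 held 67 aged (17.3%) and 28 adult ones (6.57%).

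The Hmcn1 cluster was almost wholly of the adult library, with 10 aged and 310 adult fibroblasts, so a trait of that library cannot be told apart from a kind of cell. At clustering resolutions of 0.5 and 2 a cluster with the same leading genes again held 195 and 196 of the adult lubricin fibroblasts. A cluster led by Lgr5, Mfap4 and Stk32a was found in the aged library alone, with 136 cells of which 31 were lubricin fibroblasts. A cluster led by Cxcl13 and Igf2bp2 held 37 lubricin fibroblasts among 562 aged cells (6.58%) and 2 among 71 adult cells (2.82%). A cluster led by Plcxd3 and C7 held 13 among 77 aged cells (16.9%) and 47 among 383 adult cells (12.3%).

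Prg4 and Myoc peaked in different clusters. Over all its fibroblasts, lubricin or not, the Hmcn1 cluster held Prg4 at 5031 CPM in the aged library and 2575 CPM in the adult library, and it carried 77.2% of the Prg4 UMIs of the adult lubricin fibroblasts. The next highest Prg4 level among the 21 clusters was 320 CPM in the aged part of the Angptl1 cluster. Myoc was highest in the Angptl1 cluster, at 863 CPM in the aged library and 1588 CPM in the adult library. The Hmcn1 cluster held Myoc at 163 CPM in the aged and 297 CPM in the adult library. The lubricin fibroblasts inside these clusters are part of the same cells and were chosen in part by Myoc and Ccn5. Their levels are thus a description. Those of the Angptl1 cluster held Myoc at 1639 CPM in the aged and 2325 CPM in the adult library. Those of the Hmcn1 cluster held it at 239 CPM in 7 aged cells and 364 CPM in 196 adult cells. Ccn5 stood at 469 CPM aged and 631 CPM adult in the lubricin fibroblasts of the Angptl1 cluster. In those of the Hmcn1 cluster it stood at 69.7 CPM aged, again over 7 cells, and 88.4 CPM adult. The cells picked by the rule are thus called lubricin fibroblasts below for their Prg4, with the Hmcn1 and Angptl1 clusters named where a value turns on them.

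**Figure D1:**
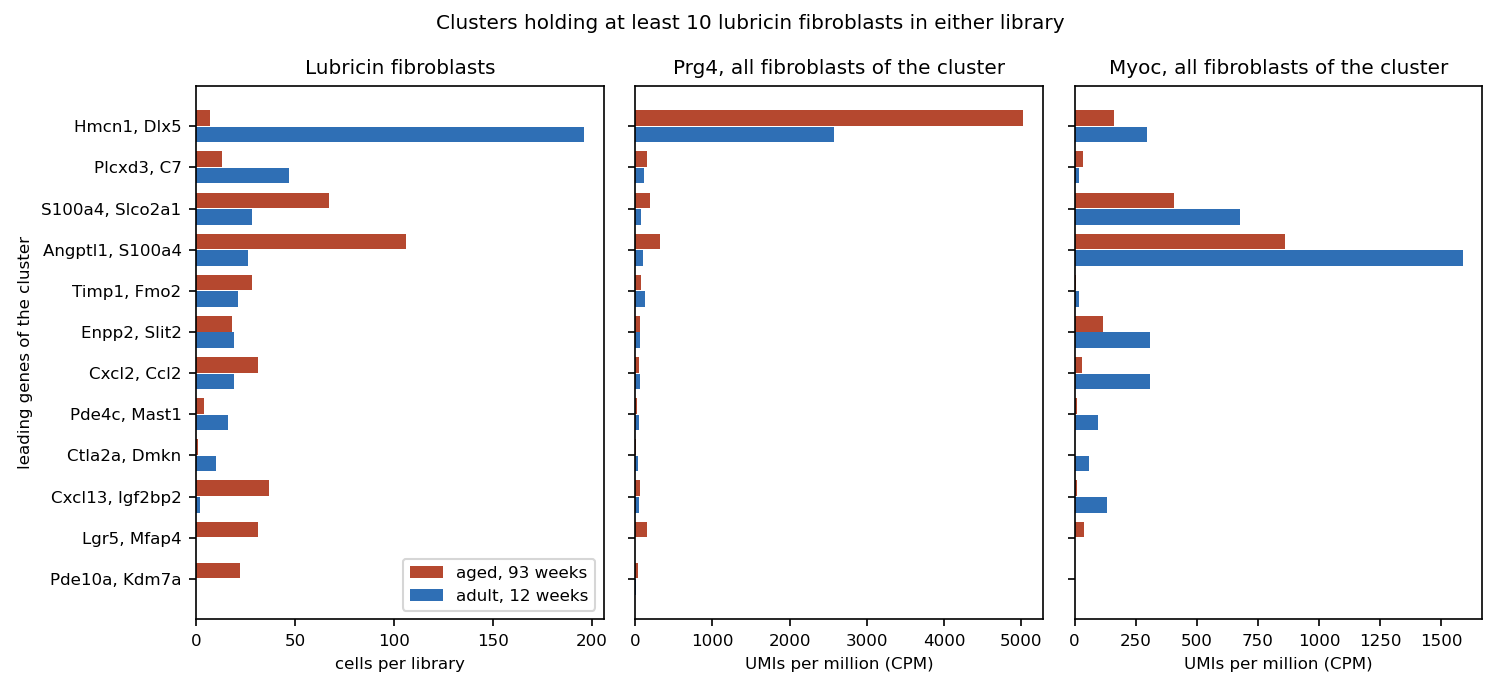
Lubricin fibroblasts per cluster (left, cells) and the Prg4 and Myoc levels over all fibroblasts of each cluster (middle and right, CPM), with the aged library in red above the adult library in blue. Bars are single values per library. The Hmcn1 cluster holds 196 adult and 7 aged lubricin fibroblasts and has the highest Prg4 bars, and the Angptl1 cluster has the highest Myoc bars.

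Comp, Npr3, P4ha3, Ptgfr and Angptl1 were the genes that stood highest in lubricin fibroblasts over the other fibroblasts of their own library, and Thsd4, Krt19 and Efna5 those that stood lowest. Of 8501 genes measured in both libraries, 60 (0.706%) were at least 1.5-fold higher in lubricin fibroblasts in both, and 92 (1.08%) were at least 1.5-fold lower in both. Taken by itself, the aged library had 1.73% of its genes higher and 1.98% lower, and the adult library 1.82% higher and 3.18% lower. A gene was measured where 10% of the cells of either group held a UMI and both groups together held 50 UMIs, in each library, and the 8 genes of the rule were left out. A gene could thus enter through the group where it stood higher alone. Ratios are of CPM after adding 1 CPM to each side, and their intervals are of the ratio without that addition. The genes named are the 12 that stood out most in both libraries in each direction. With cells brought to 1 depth 39 genes were higher, and with any Prg4 UMI in place of a value of 1 the counts were 30 higher and 55 lower.

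Among the higher ones, Comp, Col12a1, P4ha3 and Hmcn1 encode matrix proteins or an enzyme that modifies them. Comp encodes cartilage oligomeric matrix protein, a thrombospondin of cartilage and tendon, and was at 40.5 CPM in aged lubricin fibroblasts against 6.94 CPM in other aged fibroblasts, and at 41.8 CPM in adult lubricin fibroblasts against 7.92 CPM in other adult fibroblasts. These are log2 ratios of 2.38 (2.31 to 2.77) in the aged and 2.26 (2.19 to 2.61) in the adult library, and Comp was seen in 11.9% of aged and 15.7% of adult lubricin fibroblasts. Col12a1, a collagen that decorates other collagen fibrils, was higher by 1.55 in the aged and 1.65 in the adult library. P4ha3, a catalytic subunit of collagen prolyl hydroxylase, was higher by 1.73 and 1.88. Hmcn1 was higher by 1.17 in the aged library and by 2.03 in the adult library.

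Receptors, secreted proteins and intracellular proteins made up the rest. Npr3, the clearance receptor of natriuretic peptides, was at 37.1 CPM in aged lubricin fibroblasts against 6.71 CPM in other aged fibroblasts, and at 33.9 CPM in adult ones against 7.69 CPM, which gave log2 ratios of 2.31 and 2.01. Ptgfr, the receptor of prostaglandin F2-alpha, was at 37.6 CPM in aged lubricin fibroblasts against 11.0 CPM in other fibroblasts and at 37.2 CPM in adult ones against 7.33 CPM. Angptl1, a secreted angiopoietin-like protein, was the most abundant of the set and was detected in 68.3% of aged and 65.3% of adult lubricin fibroblasts. Its level was 269 CPM in aged lubricin fibroblasts against 86.7 CPM in other aged fibroblasts, and 191 CPM in adult ones against 62.4 CPM. Lepr, the leptin receptor, was higher by log2 ratios of 1.70 in the aged and 1.58 in the adult library. Masp1, a serine protease of the lectin complement pathway, was higher by 0.99 and 1.06, and Ccnd1, which encodes cyclin D1, by 1.23 and 1.43. Slc27a3, of the fatty acid transporter family, was higher by 1.03 and 1.30, and the row listed as Pakap.1 by 1.77 and 1.47.

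Promoters are shown for Myoc, which named the program, and for Angptl1, Npr3 and Ptgfr, which went with Prg4 in both libraries. The RefSeq table used, of build GRCm38.p6, held an entry for 10 of 18 genes looked up, and each window runs from 250 bases before the start site to 50 after it, 5' to 3' on the strand of the gene. They are Myoc on the plus strand at chr1:162638900-162639199, Angptl1 on the plus strand at chr1:156838773-156839072, Npr3 on the minus strand at chr15:11907322-11907621 and Ptgfr on the minus strand at chr3:151837479-151837778. Capitals mark matches, on either strand, to any of 7 short motifs, and no 2 marked matches overlap.
Myoc: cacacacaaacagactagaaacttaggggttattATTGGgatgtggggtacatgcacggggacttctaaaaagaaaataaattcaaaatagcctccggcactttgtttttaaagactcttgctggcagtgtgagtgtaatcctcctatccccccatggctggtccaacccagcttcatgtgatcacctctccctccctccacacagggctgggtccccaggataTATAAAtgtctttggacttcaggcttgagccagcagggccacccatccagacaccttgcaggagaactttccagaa
Angptl1: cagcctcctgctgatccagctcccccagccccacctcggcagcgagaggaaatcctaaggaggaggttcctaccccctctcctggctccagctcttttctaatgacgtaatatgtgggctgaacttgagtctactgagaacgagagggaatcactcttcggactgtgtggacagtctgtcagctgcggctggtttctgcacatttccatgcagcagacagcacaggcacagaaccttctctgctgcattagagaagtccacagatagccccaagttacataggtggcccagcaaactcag
Npr3: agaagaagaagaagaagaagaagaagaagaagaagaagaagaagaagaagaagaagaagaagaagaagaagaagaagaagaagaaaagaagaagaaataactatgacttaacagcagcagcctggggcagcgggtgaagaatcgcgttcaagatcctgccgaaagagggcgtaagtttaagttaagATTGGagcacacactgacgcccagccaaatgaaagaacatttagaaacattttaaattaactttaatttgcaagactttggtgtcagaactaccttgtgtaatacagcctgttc
Ptgfr: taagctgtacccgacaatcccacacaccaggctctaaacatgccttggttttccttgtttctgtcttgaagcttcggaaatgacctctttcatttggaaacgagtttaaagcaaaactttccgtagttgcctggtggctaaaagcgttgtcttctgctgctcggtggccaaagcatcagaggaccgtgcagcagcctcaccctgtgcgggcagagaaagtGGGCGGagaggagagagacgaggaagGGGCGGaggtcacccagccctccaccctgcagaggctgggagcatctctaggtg
Of 32851 promoters of this length, 13.6% held the TATA box TATAAA and 37.4% the pentamer of the CCAAT box. The GC box, GGGCGG, was in 35.7% of them, and the cAMP response element, TGACGTCA, in 1.79%. The AP-1 site, searched as TGANTCA, was in 7.81%, the homeobox core TAATTA in 5.29% and the TEAD site GGAATG in 14.7%. The Myoc window held a TATA box that begins 26 bases before the start site and a CCAAT box on the opposite strand. Npr3 held a CCAAT box on the opposite strand, Ptgfr held GC boxes only, at 30 and 4 bases before the start site, and no letters of the 7 motifs stood in the Angptl1 window. No motif was shared by all 4 windows.

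The genes lower in lubricin fibroblasts were led by Thsd4, Krt19 and Efna5. Nav3, a microtubule-binding neuron navigator, was at 171 CPM in aged lubricin fibroblasts against 471 CPM in other aged fibroblasts, and at 139 CPM in adult ones against 460 CPM, log2 ratios of -1.46 and -1.71. Efna5, a membrane-anchored ephrin ligand, was at 70.8 CPM in aged lubricin fibroblasts against 203 CPM and at 49.0 CPM in adult ones against 199 CPM. Pla1a, a secreted phospholipase that acts on phosphatidylserine, was lower by log2 ratios of -1.43 in the aged and -1.31 in the adult library. Krt19, a keratin, was lower by -1.53 and -2.14, and Thsd4, a protein of fibrillin microfibrils, by -1.59 and -1.85. Aldh1a3, an enzyme of retinoic acid synthesis, was lower by -1.22 and -1.68, and Gata6, a transcription factor, by -1.28 and -1.20. Kcnn3, Mbp, Itgb7, Atp1b1 and Krt36 complete the 12, with log2 ratios between -1.19 and -1.69 in the aged library and of -1.38 or lower in the adult library.

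**Figure D2:**
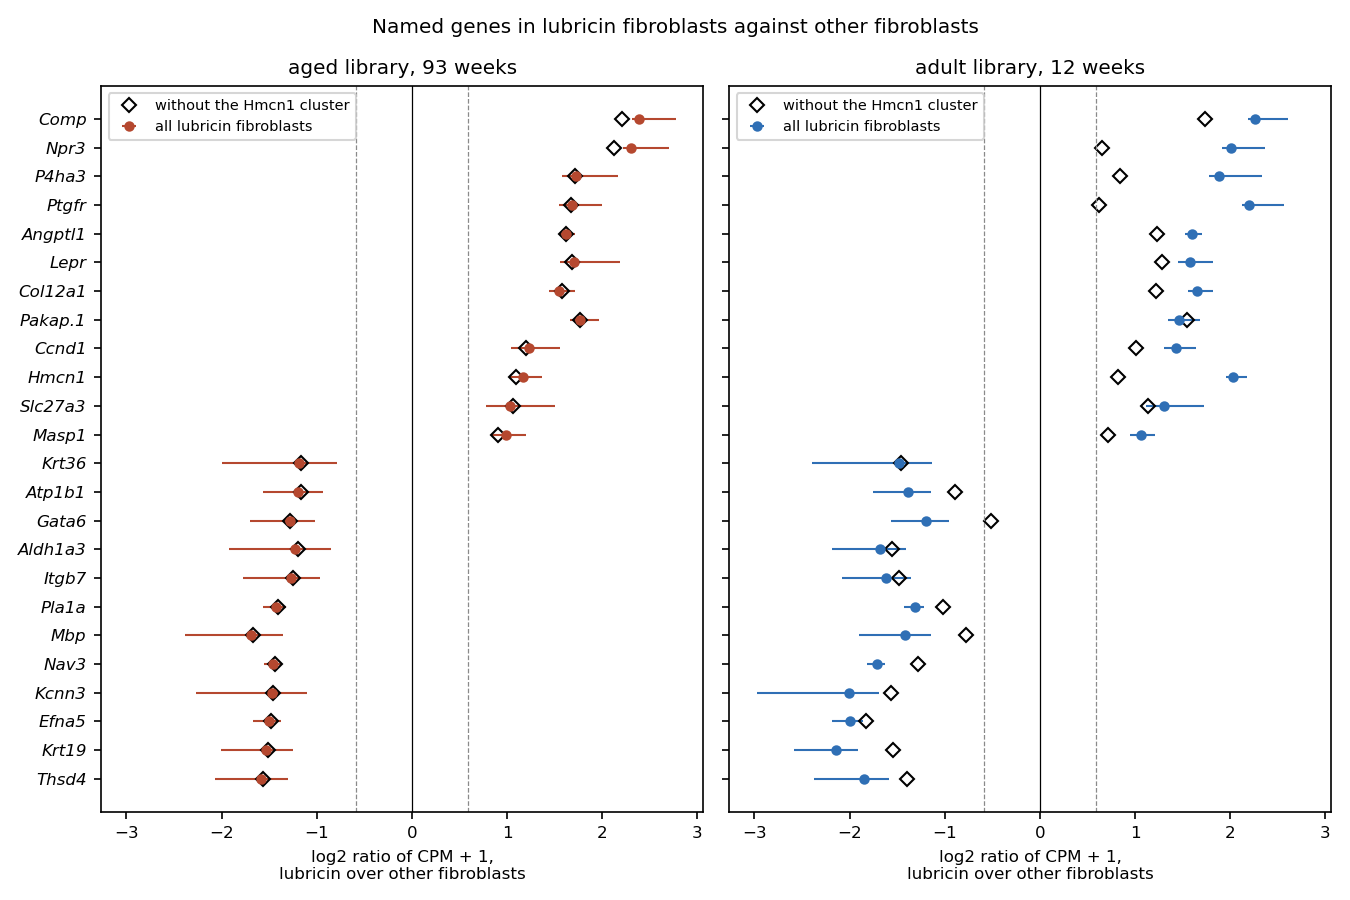
Log2 ratio of CPM + 1 in lubricin fibroblasts over other fibroblasts for the 24 named genes, in the aged library (left) and the adult library (right). Filled points are all lubricin fibroblasts with 95% counting intervals of the ratio without the added CPM, open diamonds leave out the Hmcn1 cluster, and dashed lines mark 1.5-fold. The diamonds lie close to the points in the aged library, where that of Npr3 is at 2.13 and that of Comp at 2.21. In the adult library those of Npr3, Ptgfr, P4ha3, Hmcn1, Mbp and Gata6 lie clearly nearer to 0, and that of Pakap.1, at 1.54, lies farther from it.

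Without the cells of the Hmcn1 cluster, a choice made after seeing the data, 12 of the 12 higher genes stayed past 1.5-fold in both libraries, and 12 of 12 lower genes did so in the aged library and 11 of 12 in the adult library. The exception was Gata6, at -0.52 in the adult library. The adult log2 ratio of Npr3 was 0.66 (0.23 to 1.20) without the cluster, and that of Ptgfr 0.62 (0.19 to 1.17). That of P4ha3 was 0.85 (0.44 to 1.44) and that of Hmcn1 0.82 (0.63 to 1.05), so each was lower outside that cluster. The intervals of Npr3, Ptgfr, P4ha3 and Masp1 (0.53 to 0.92) reach below 1.5-fold. Under this choice 24 named values against other populations left their main counting interval and 16 stayed. In the aged library, where the cluster held 7 lubricin fibroblasts, the ratio without it was 2.13 for Npr3, 1.67 for Ptgfr and 1.71 for P4ha3.

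The closest population was fibroblasts that met the program part of the rule and held no Prg4, 2866 aged and 3087 adult cells. Of 8585 genes measured, 59 (0.687%) were higher in lubricin fibroblasts than in these and 104 (1.21%) were lower, in both libraries. With cells brought to 1 depth the counts were 16 higher and 45 lower. The 8 most raised genes were Comp, Npr3, Ptgfr, Angptl1, P4ha3, Pakap.1, Col12a1 and Lepr, all of them named above. Ptgfr had log2 ratios of 2.04 in the aged and 2.45 in the adult library in this contrast. The lower genes added Mrgprg, an orphan receptor of the Mas-related family, which was at 15.2 CPM in aged lubricin fibroblasts against 48.7 CPM and at 14.6 CPM in adult ones against 73.6 CPM. Of the 16 genes named here, 15 were also among the 24 named against all other fibroblasts, and the lubricin fibroblasts are part of neither group they were set against.

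Levels of these genes are given next by the Prg4 value of a cell, as a description. The program fibroblasts without Prg4 are the closest population above, and those from a value of 1 up are the lubricin fibroblasts. The genes were named for differing between groups of these same cells. A difference between the lowest and the upper ranges thus restates that choice. Among fibroblasts meeting the program part of the rule, Comp stood at 7.68 CPM in aged cells without Prg4, 22.7 CPM below a Prg4 value of 1, 31.8 CPM from 1 to 2, 30.5 CPM from 2 to 3 and 122 CPM from 3 up. In the adult library Comp stood at 6.46, 26.2, 37.1, 25.9 and 58.6 CPM in the same order, highest again in the top range. Nav3 ran the other way, with 508, 276, 183, 183 and 60.0 CPM in the aged library and 460, 270, 190, 159 and 66.8 CPM in the adult library. Angptl1 reached 528 CPM in the top aged range and 240 CPM in the top adult range.

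Myoc is a gene of the rule, so its levels here are a description, and its 2 libraries parted at the top of the Prg4 range. Myoc stood at 91.7, 253, 498, 644 and 1165 CPM across the 5 ranges in the aged library. In the adult library it stood at 232, 339, 531, 643 and 412 CPM. The top value rests on 660 Myoc UMIs in the aged and 949 in the adult library, and the difference was not tested. The top range held 39 aged and 146 adult cells, of which 12.8% and 83.6% were in the Hmcn1 cluster, against 0.0698% and 1.39% of the cells without Prg4. Ptgfr peaked in the aged range from 1 to 2, at 46.7 CPM, and in the top adult range, at 69.9 CPM.

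**Figure D3:**
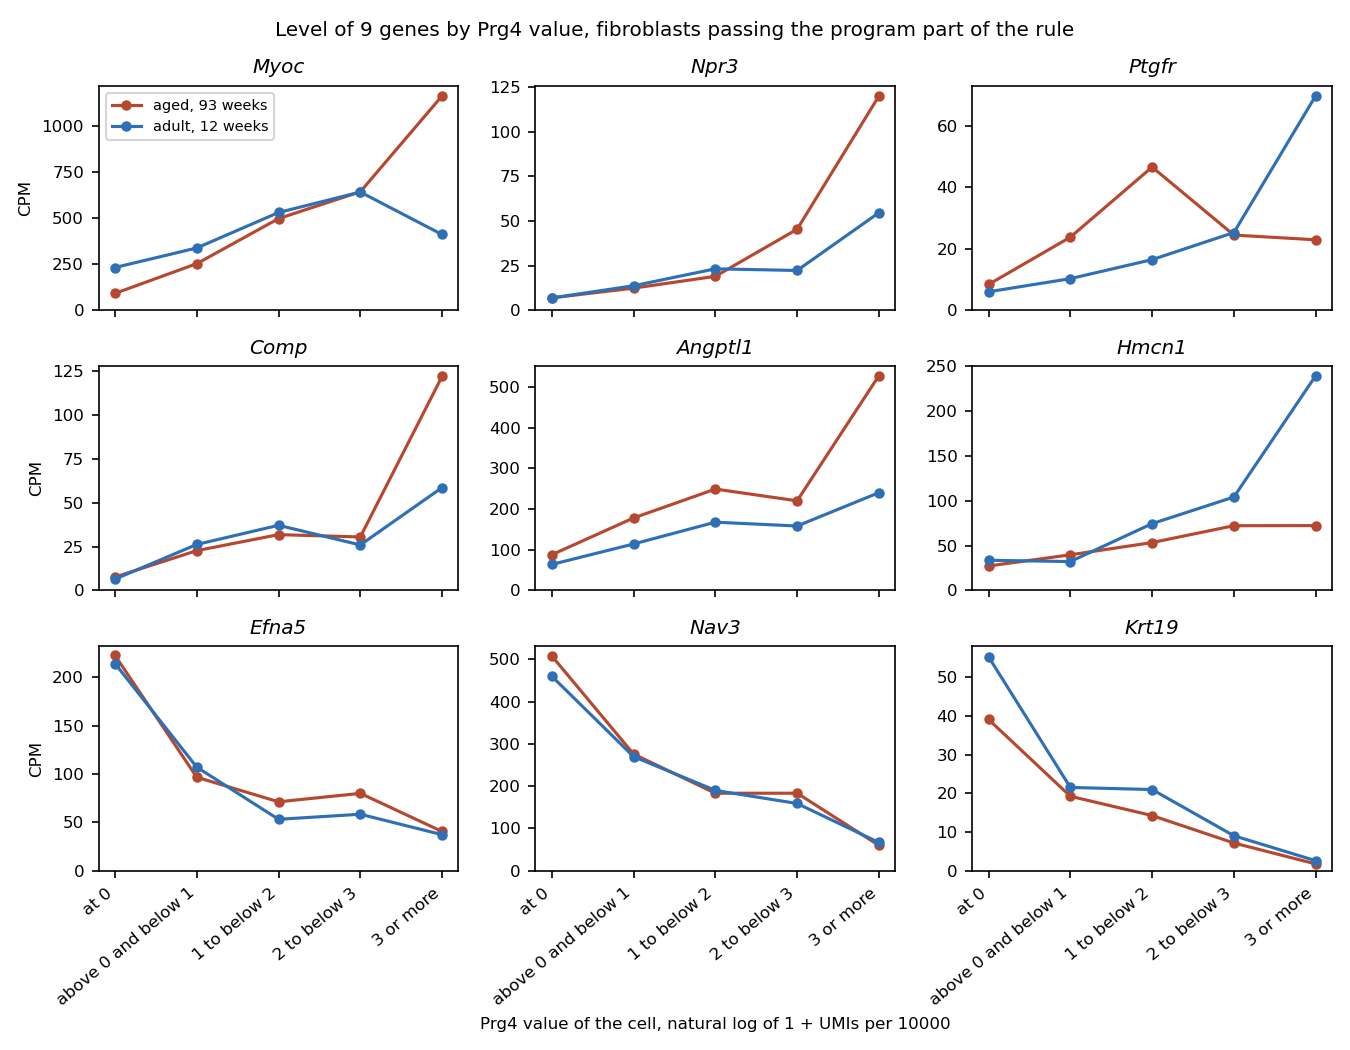
Levels (CPM) of 9 genes in fibroblasts meeting the program part of the rule, by range of the Prg4 value on the natural log scale, in the aged (red) and adult (blue) library. Points are sums over the cells of a range, with no replicate. Npr3, Comp and Angptl1 are highest from a Prg4 value of 3 up in both libraries, Efna5, Nav3 and Krt19 are lowest there, and Myoc is highest there in the aged library but not in the adult library.

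Gene lists for tissues where lubricin is known were mostly level, apart from the cartilage and tendon list, of which few genes were measured. The share over all genes measured was 0.706% higher and 1.08% lower in both libraries. Of 7 measured genes of the synovial lining, 0 were higher and 1, Mmp3, was lower in lubricin than in other fibroblasts in both libraries, with list medians of -0.02 in the aged and -0.14 in the adult library. Mmp3, a matrix metalloproteinase, stood at 284 CPM in aged lubricin fibroblasts against 456 CPM, and at 190 CPM in adult ones against 454 CPM. Of 8 measured regulators of lubricin, 1 was higher, the parathyroid hormone receptor Pth1r, with log2 ratios of 0.77 aged and 0.76 adult. Of 6 measured genes of the trabecular meshwork and 7 of hyaluronan synthesis and binding, 0 passed 1.5-fold in both libraries. Has1, a hyaluronan synthase, stood at 1510 CPM in aged lubricin fibroblasts against 1119 CPM and at 1343 CPM in adult ones against 1020 CPM. Of 23 cartilage and tendon genes 3 were measured, of which Comp and Ptn were higher, with list medians of 0.78 in the aged and 0.95 in the adult library. The medians over all genes measured were -0.01 in both libraries.

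Few genes of the inflammatory lists were called, all of them lower. Over all genes measured, 0.706% were higher than in other fibroblasts in both libraries and 1.08% were lower. Of 19 measured chemokine, cytokine and adhesion genes, 0 were higher and 4 were lower in both libraries: Cxcl10, Cxcl13, Ccl11 and Ccl19. The list medians were -0.05 in the aged and -0.27 in the adult library. Cxcl10, an interferon-induced chemokine, was at 34.4 CPM in aged lubricin fibroblasts against 67.3 CPM, and at 23.7 CPM in adult ones against 135 CPM. Of 19 measured interferon response genes 3 were lower, Isg15, Ifi47 and Rtp4, and the list medians were -0.35 in the aged and -0.59 in the adult library. Against program fibroblasts without Prg4, 2 of 18 chemokine genes and 1 of 20 interferon genes were lower and 0 were higher, and the aged chemokine median was 0.05. In that contrast 0.687% of all genes measured were higher and 1.21% were lower. Of 14 measured Wnt genes 2 were higher, the secreted antagonist Sfrp1 and the pathway inhibitor Nkd1, and Sfrp1 had log2 ratios of 0.69 aged and 1.55 adult. Of 11 measured matricellular genes Comp was higher and Sparcl1, Postn and Spon1 were lower. Of 19 measured collagens Col12a1 was higher and Col6a5 was lower, with list medians of -0.01 in the aged and -0.33 in the adult library. Of 23 measured matrix proteases and inhibitors 0 were higher and Mmp3 was lower. The respiratory chain (20 measured), antioxidant (18), cell-cycle arrest (11) and glucocorticoid (15) lists had 0 genes past 1.5-fold in both libraries.

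Markers of other cell kinds were low, with exceptions that differed by library. Ptprc, Laptm5 and Cd52 were at 0 in both groups of lubricin fibroblasts, as were the cartilage gene Acan and the tendon gene Scx. Other members of these lists were found: Coro1a at 0.535 CPM in aged and 0.603 CPM in adult ones, and Matn3 at 0.357 and 0.302 CPM. The tendon gene Tnmd was at 5.17 CPM in aged and 0.754 CPM in adult lubricin fibroblasts, and at 1.86 and 1.41 CPM in other fibroblasts. Pericyte markers, led by Abcc9, were found in 74.2% of aged lubricin fibroblasts (56.7% of other aged fibroblasts) and 60.3% of adult ones (49.4% of other adult fibroblasts). Schwann markers, led by S100b, were found in 17.0% of aged ones (12.4% of other fibroblasts) and 25.6% of adult ones (15.9%). The lymphocyte gene Cd3e was at 72.3 CPM in aged and 27.4 CPM in adult lubricin fibroblasts, and at 85.7 and 67.9 CPM in other fibroblasts. Haemoglobin and Alas2 summed to 5.71 CPM in aged and 654 CPM in adult lubricin fibroblasts, and to 4.92 CPM in other aged and 208 CPM in other adult fibroblasts. The 6 salivary acinar markers, led by Dcpp1, summed to 74.8 CPM in aged and 0.754 CPM in adult lubricin fibroblasts, with 5 of the 6 at 0 in adult ones, and to 1296 CPM in other aged and 1.11 CPM in other adult fibroblasts. Cells with at least 2 UMIs over 7 immune, endothelial, muscle and epithelial markers numbered 15 (3.87%) in aged and 55 (12.9%) in adult lubricin fibroblasts. Among cells whose sex could be called from their transcripts, 28.4% of aged lubricin fibroblasts were female, against 42.1% of other aged fibroblasts, and 40.1% of adult ones, against 56.7% of other adult fibroblasts. Without the cells holding markers of another type, 61 genes were higher and 98 lower than in other fibroblasts, and 355 were higher and 591 lower with age. The counts against other fibroblasts were 95 and 217 in female cells and 65 and 87 in male cells. The part of the pericyte, Schwann, Cd3e, haemoglobin and salivary transcripts in the results was not tested.

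Between the ages, 13 of 22 measured collagens and the periostin gene Postn stood higher in aged lubricin fibroblasts, and Ctla2a, Phex and Dlx6 stood lowest. Of 9138 genes measured, 344 (3.76%) were at least 1.5-fold higher in aged than in adult lubricin fibroblasts and 639 (6.99%) were lower. In other fibroblasts 156 of 8792 genes (1.77%) were higher in the aged library and 323 (3.67%) were lower, over 5272 aged and 5175 adult cells, and the counts rest on far more cells there. The Hmcn1 cluster held 46.0% of adult and 1.80% of aged lubricin fibroblasts, so key values are given also without it (381 aged and 230 adult cells). Without it 353 genes were higher and 652 were lower of 9126 measured. With the shared barcodes counted in the aged library as well, 164 genes were higher and 236 were lower.

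The genes highest in aged over adult lubricin fibroblasts included imprinted transcripts and matrix genes. Rian, a long noncoding RNA of the imprinted Dlk1-Dio3 region, was at 179 CPM in aged and 18.5 CPM in adult lubricin fibroblasts, a log2 ratio of 3.21 (3.00 to 3.56) and of 2.75 without the Hmcn1 cluster. Meg3, of the same region, was at 519 CPM in aged and 99.8 CPM in adult ones. Postn, which encodes periostin, a matricellular protein of remodelling tissue, was at 229.6 CPM in aged and 29.9 CPM in adult lubricin fibroblasts and was found in 45.6% and 9.86% of the cells. Its log2 ratio was 2.90, and 2.94 without the Hmcn1 cluster, against 1.86 in other fibroblasts. Lrrc15, a leucine-rich repeat membrane protein, was higher by 2.91 and in other fibroblasts by 0.92. Adam12, a membrane metalloproteinase, was higher by 2.82, Cthrc1, a secreted protein with a collagen repeat, by 2.26, and Itm2a, a type II membrane protein, by 2.30. Cthrc1 and the retinol dehydrogenase Dhrs9 stood at 0.05 and 0.26 in other fibroblasts and at 2.07 and 1.74 in lubricin fibroblasts without the Hmcn1 cluster. All 12 named higher genes, which also take in Stk32a, Col4a5, Col6a5 and Cpz, stayed past 1.5-fold without that cluster and in cells of each sex, and 11 of 12 did so within the Angptl1 and Slco2a1 clusters (173 aged and 54 adult cells). The exception there was Stk32a, at 0.16. Other clusters are also bound to 1 library. Stk32a and Col4a5 are leading genes of the Lgr5 cluster, with 31 lubricin fibroblasts, all aged. Rian is one in a cluster of 295 aged and 7 adult fibroblasts, and Col6a5 and Postn in one of 149 and 6. These held 3 and 2 lubricin fibroblasts, all aged. Adam12 is one in a cluster of 308 aged and 515 adult fibroblasts. Leaving out these clusters alone was not tried. With the shared barcodes counted in the aged library as well, the 12 ran from 1.72 to 2.72, against 2.13 to 3.21 with them counted once.

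The genes lowest in aged lubricin fibroblasts varied more with which clusters were counted. Ctla2a, an inhibitor of cysteine proteases, was at 21.9 CPM in aged and 374 CPM in adult ones, a log2 ratio of -4.03. That ratio was -4.76 without the Hmcn1 cluster, -0.85 within the Angptl1 and Slco2a1 clusters, and -1.17 with all cells of the aged table. Ctla2a and Clic5 are leading genes of a cluster of 20 aged and 380 adult fibroblasts. It held 1 aged and 10 adult lubricin fibroblasts, and leaving it out was not tried. Dlx6 was at 1.43 CPM in aged and 15.7 CPM in adult lubricin fibroblasts, a log2 ratio of -2.78 that was -0.49 without the Hmcn1 cluster. Phex, a membrane peptidase of mineralised tissue, had -2.92 and -0.84 without the cluster, and Oxtr, the oxytocin receptor, -2.31 and -0.38. Dlx6os1, which is transcribed opposite Dlx6 and whose reads cannot be told apart from it unless counting used strand, had -2.70 and -0.98. Nr1d1, the clock repressor REV-ERB alpha, was at 1.78 CPM in aged and 15.4 CPM in adult cells, with log2 ratios of -2.56 in all lubricin fibroblasts, -2.09 without the cluster and -2.33 in other fibroblasts. Tpm2, a tropomyosin abundant in smooth muscle, was lower by -2.31, but stood at 0.14 once cells with markers of another type were left out. The 7 smooth muscle markers summed to 11.8 CPM in aged lubricin fibroblasts, with Myocd at 0, and to 126 CPM in adult ones, with all 7 found. Rasgrf1, Clic5, Rtn1, Dgkb and Nav2 ran from -2.23 to -2.60, and without the Hmcn1 cluster from -1.23 to -3.26. With the shared barcodes counted in the aged library as well, all 12 lower genes stayed past 1.5-fold at ratios nearer to 0, with Nr1d1 at -1.45 and Dlx6 at -1.05.

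**Figure D4:**
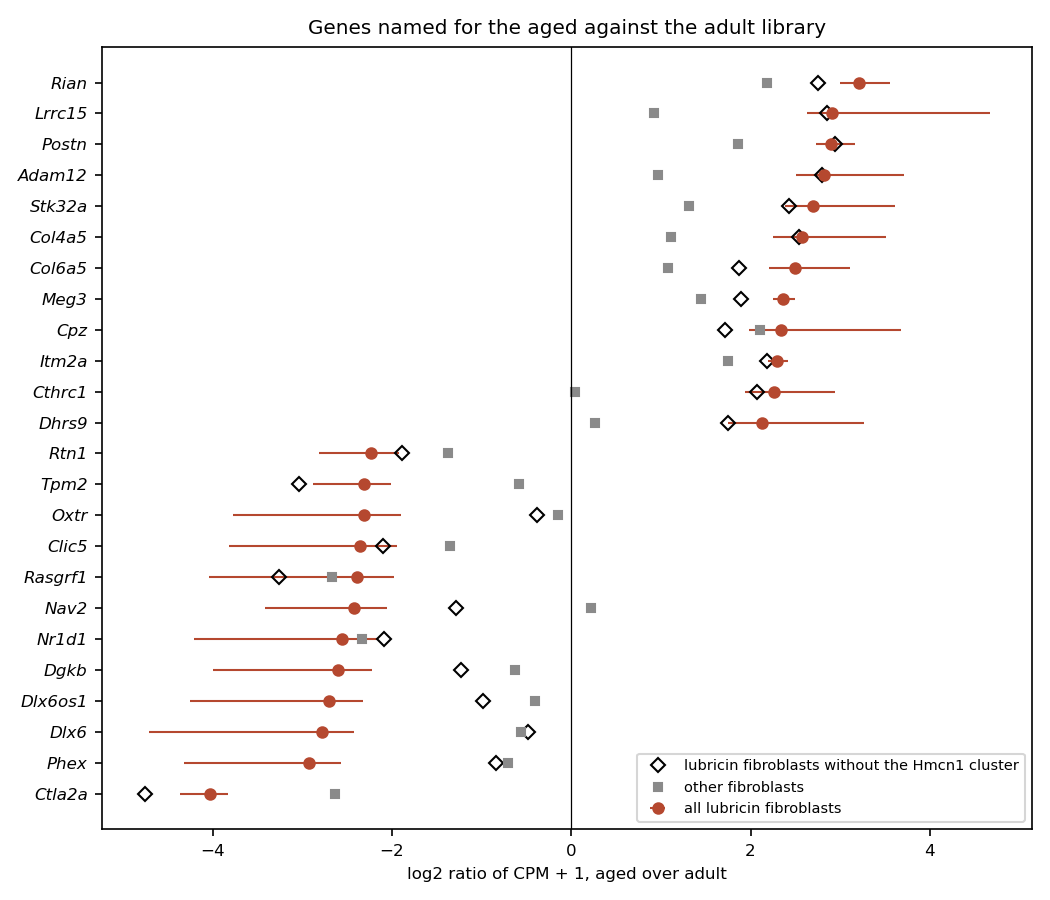
Log2 ratio of CPM + 1, aged over adult, for the 24 named genes. Red points are all lubricin fibroblasts with 95% counting intervals of the ratio without the added CPM, open diamonds leave out the Hmcn1 cluster, and grey squares are other fibroblasts. The higher genes keep their diamonds close to the points, while among the lower genes the diamonds of Dlx6 (-0.49) and Oxtr (-0.38) lie inside 1.5-fold and that of Phex (-0.84) just outside it.

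Collagens were the list with the most genes higher with age, where 3.76% of all genes measured were higher and 6.99% were lower. Of 22 measured, 13 were at least 1.5-fold higher in aged lubricin fibroblasts and 0 were lower, and the median log2 ratio was 0.96, against -0.05 over all genes. Without the Hmcn1 cluster the median was 0.97 and all 13 stayed past 1.5-fold, and in other fibroblasts the median was 0.48 with 8 of the 13 past it. Col4a5, a basement membrane collagen chain, was at 28.4 CPM in aged and 3.92 CPM in adult lubricin fibroblasts. Col6a5, a beaded-filament collagen, was at 47.3 CPM in aged and 7.54 CPM in adult ones, and Col15a1, of the basement membrane zone, at 45.3 CPM in aged and 10.3 CPM in adult ones. Col15a1 had a log2 ratio of 2.04, and 0.19 in other fibroblasts. The fibrillar collagens Col1a1 and Col3a1, named here after their values were seen, stood at 1903 and 4808 CPM in aged and 567 and 1360 CPM in adult lubricin fibroblasts.

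**Figure D5:**
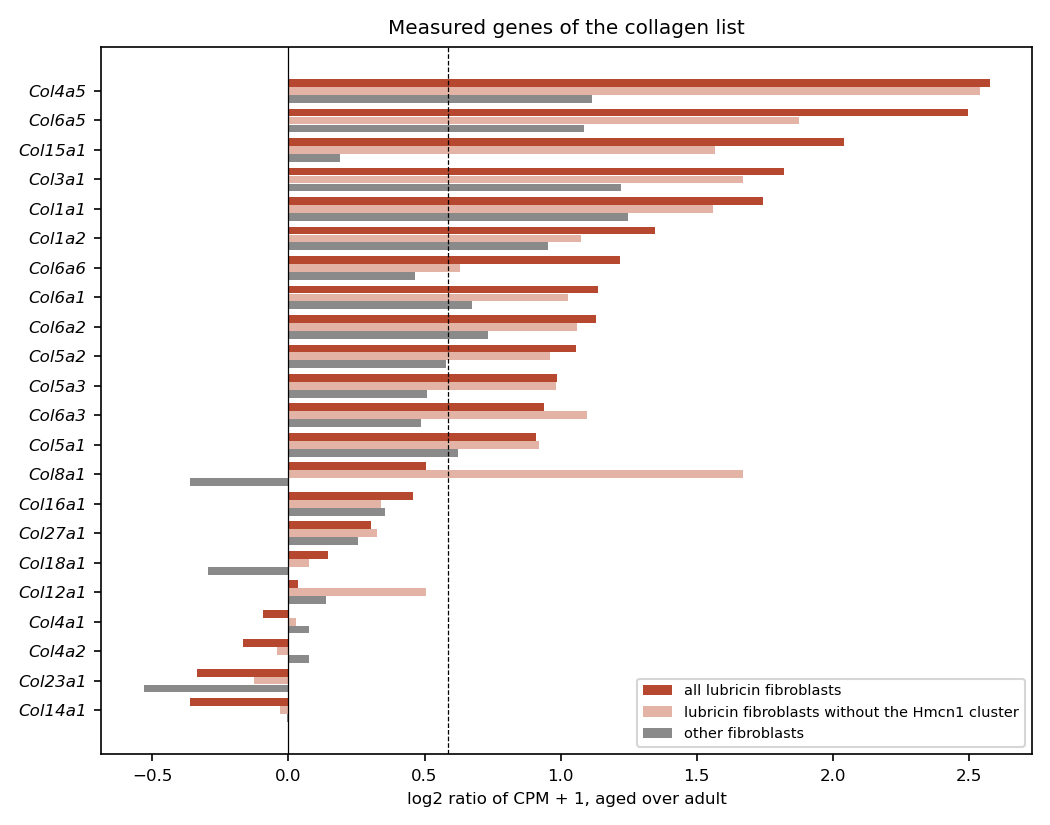
Log2 ratio of CPM + 1, aged over adult, for the 22 measured genes of the collagen list, in all lubricin fibroblasts (red), in those outside the Hmcn1 cluster (pale) and in other fibroblasts (grey). Bars are single values from 1 library per age and the dashed line marks 1.5-fold. For 13 genes the red and the pale bars pass the line, while Col12a1, higher in lubricin than in other fibroblasts, stays below the line in all of them.

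Matricellular, chemokine and glucocorticoid genes had most of their calls on the higher side. Over all genes measured, 3.76% were higher with age and 6.99% were lower. Of 11 measured matricellular genes 5 were higher, led by Postn and by Sparc at 6398 CPM in aged and 1647 CPM in adult lubricin fibroblasts, and Sparcl1 was lower. Of 19 measured chemokine, cytokine and adhesion genes 8 were higher and Ccl11 was lower. Vcam1, an adhesion molecule for leukocytes, was at 54.4 CPM in aged and 18.6 CPM in adult lubricin fibroblasts, and the chemokines Cxcl2 and Ccl7 had log2 ratios of 1.42 and 1.37. Of 15 measured glucocorticoid genes 6 were higher and 0 lower, led by Zbtb16 at 1.62, and the list median of 0.40 was close to the 0.43 of other fibroblasts. Without the Hmcn1 cluster 6 of the 8 chemokine genes and 4 of the 6 glucocorticoid genes stayed past 1.5-fold.

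Some interferon and antigen presentation genes were lower with age, where 6.99% of all genes measured were lower and 3.76% were higher. Of 21 measured interferon response genes 7 were lower and 0 higher, with Stat2 at 21.2 CPM in aged and 43.9 CPM in adult lubricin fibroblasts. The interferon median was -0.30 in lubricin fibroblasts and -0.53 in other fibroblasts, where 5 of the 7 passed 1.5-fold. Of 16 measured class I presentation genes 5 were lower and H2-Q7, which shares reads with near-identical class I genes, was higher. Nlrc5, the transcriptional activator of class I genes, was at 3.57 CPM in aged and 16.0 CPM in adult lubricin fibroblasts. The class I median was -0.33 in lubricin fibroblasts and -0.78 in other fibroblasts, where all 5 lower genes passed 1.5-fold as well. Of 11 measured prostaglandin genes 4 were lower, and Ptgs1, the constitutive cyclooxygenase, was at 31.9 CPM in aged and 103 CPM in adult lubricin fibroblasts. Of 24 measured matrix proteases and inhibitors 5 were higher and 3 lower, and Adamtsl3 was at 60.8 CPM in aged and 265 CPM in adult ones. The respiratory chain list had 0 of 20 genes past 1.5-fold.

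The genes that chose the cells are given last, as a description. Prg4 itself was lower in aged lubricin fibroblasts by a log2 ratio of -1.15, and by -0.07 without the Hmcn1 cluster. Myoc stood at 609 CPM in aged and 518 CPM in adult lubricin fibroblasts, and at 76.4 CPM in other aged and 178 CPM in other adult fibroblasts. Ccn5 and Sfrp4 were higher in aged lubricin fibroblasts by 0.90 and 0.89, Thbs2 by 0.38 and Lgals3 by 0.31. In female cells Myoc had a log2 ratio of 1.14 and in male cells -0.36.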

How the data were processed

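Cells sorted from superficial cervical lymphatics of 6 aged and 6 adult mice were measured as 1 droplet library per age. The submitters' processing notes name Seurat 5.0.3 and the builds GRCm39 and mm10 without a role. No aligner, counting step or strand setting is stated. The deposited values are on a natural log scale, ln of 1 plus UMIs per 10000 of a cell: un-logged values summed to 10000 in each cell, and 100% came out as whole UMIs within 0.01. Rows of the aged table are numbered, so its 23521 rows took the adult table's gene names in order (correlation of gene means 0.998, and -0.0335 after shifting rows). Barcodes in both tables were counted as adult.

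UMIs were summed per library and population and set per 1000000 (CPM). Log2 ratios carry 1 added CPM and exact conditional binomial intervals of the ratio without it, and shares carry exact Clopper-Pearson intervals. Intervals cover counting error only. A call was 1.5-fold among genes with a UMI in 10% of the cells of a group and 50 UMIs. Named genes were the 12 (against program fibroblasts without Prg4, 8) most extreme in both libraries, and the 12 highest and lowest for age, without rule genes, sex, mitochondrial, haemoglobin and Dcpp genes and unnamed models. In each list up to 3 measured genes with the largest absolute ratio were named, or those called when few.

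Fibroblasts were clustered without the 8 rule genes: 2000 variable genes, 30 principal components (numpy 2.4.6), 15 neighbours (scikit-learn 1.9.0) and Leiden at resolution 1 (igraph 0.11.9). Clusters are called by their leading genes. No doublet caller was run. Leaving out cells with 2 or more UMIs of Ptprc, Pecam1, Cdh5, Prox1, Myh11, Epcam and Krt14 was tried in its place. Scripts were tested on simulated counts. The members, gene lists and comparisons were chosen with earlier results of these data known. With 1 library per age no test was run. Proteins were not used here.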

Additional observations from a re-analysis of the deposited data

Results flagged for a closer look

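A few genes moved in opposite directions in the 2 libraries or in the 2 populations. These were picked for passing 1.5-fold both ways, and the difference itself was not tested, as each side is 1 library. Fhl2, a LIM-domain protein, stood at 25.5 CPM in aged lubricin fibroblasts against 10.9 CPM in other aged fibroblasts and at 12.2 CPM in adult lubricin fibroblasts against 19.9 CPM in other adult fibroblasts. Its log2 ratios were 1.16 in the aged and -0.66 in the adult library, a gap of 1.82, which is also the gap between its age ratio in lubricin fibroblasts and in other fibroblasts, the last being -0.82. Mfap4, a microfibril-associated protein, had log2 ratios over other fibroblasts of 0.76 in the aged and -0.80 in the adult library, a gap of 1.56, and it is among the leading genes of the Lgr5 cluster found in the aged library alone. Tril, set against program fibroblasts without Prg4, had 0.70 in the aged and -0.61 in the adult library, a gap of 1.31. Spock3 was higher with age by 0.83 in lubricin fibroblasts and at -0.72 in other fibroblasts, a gap of 1.55, and without the Hmcn1 cluster its ratio was 0.37. Gria4 was higher with age by 0.94 in lubricin fibroblasts and at -0.67 in other fibroblasts, a gap of 1.60, and it stood at 0.15 without the Hmcn1 cluster.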

How the results depend on the processing

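For a named gene the bound was its counting interval, and for a list median it was its sign. Over the list medians and named genes under each alternative, 1115 values stayed within these bounds and 348 moved. The 1115 take in values that could not move. A minimum of 200 UMIs and no filter on low genes alter only which genes are counted. Under each of these settings all 30 list medians stayed for that reason, as did 40 named values against other populations and 24 for age. The moved values take in 55 list medians that changed sign, each from a main value inside 1.5-fold. Among the named genes 1 value turned its direction. That one was Tpm2, lower with age by -2.31 and at 0.14 without cells with markers of another type; the cause was not tested. With any Prg4 UMI in place of a value of 1, the share was 13.9% in the aged and 14.4% in the adult library, the counts against other fibroblasts were 30 higher and 55 lower, and those against program fibroblasts without Prg4 were 31 and 49. With at least 1 program gene the shares were 8.41% and 9.05%, and with at least 3 they were 4.56% and 5.20%, with 148 genes lower than in other fibroblasts. In female cells alone the shares were 4.61% and 5.35%, with 95 genes higher and 217 lower than in other fibroblasts, and 96 and 210 than in program fibroblasts without Prg4; in male cells alone the shares were 8.13% and 9.95%. Among fibroblasts outside the Hmcn1 cluster the share was 6.74% in the aged and 4.35% in the adult library. That order is the reverse of the order over all fibroblasts. At 1 depth 39 genes were higher than in other fibroblasts, and 16 were higher and 45 lower than in program fibroblasts without Prg4. With 5 CPM added, 38 genes were higher than in other fibroblasts and 391 were lower with age. With no filter on low genes the counts were 121 and 298 against other fibroblasts, 136 and 282 against program fibroblasts without Prg4, and 1016 and 1926 with age. With age, all cells of the aged table gave 164 higher and 236 lower, a minimum of 200 UMIs gave 228 and 332, and the Angptl1 and Slco2a1 clusters gave 531 higher. The last holds 54 adult cells, so low counts limit its ratios. No paired analysis was possible because each age has 1 library.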
